A study of Gallus gallus with 2 samples.

Results

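The genes described here are the heat shock proteins and their co-chaperones, chosen by their symbol in the array's annotation. They are all genes whose symbol starts with HSP, DNAJ or PDIA, the CCT and BAG genes with a number, and TCP1, AHSA1, CALR, CANX and HYOU1. The array held 87 such genes among 13009 named genes, reported by 166 of 38439 probe sets. Of the 87 genes, 71 had a signal of at least 98 on 1 or both arrays and were described by level and ratio. The 16 others were under that floor on both arrays. The 71 genes were sorted by the compartment in which their product is known to work, with 37 cytosolic (cytosol or nucleus), 9 mitochondrial, 21 in the endoplasmic reticulum (ER) and 4 elsewhere.

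RNA came from DT40, a chicken B-cell line derived from a bursal lymphoma, with 1 array for H2A.Z-1 KO cells and 1 array for H2A.Z-2 KO cells. H2A.Z-1 and H2A.Z-2 are a pair of closely similar histone H2A variants. H2A.Z-1 KO cells depend on an H2A.Z-1 transgene that tetracycline switches off, whereas the H2A.Z-2 gene is disrupted for good in H2A.Z-2 KO cells. Both cultures shared the same serum-containing medium with 2-mercaptoethanol, a reducing agent, and both received tetracycline at 2 µg/ml over 72 hours. A wild-type array was not analysed here, so every ratio sets one knockout against the other. Each genotype was measured once, which leaves no spread between cultures and allows no test. Ratios are log2 of the H2A.Z-1 KO signal over the H2A.Z-2 KO signal, and a negative ratio means a lower signal in H2A.Z-1 KO cells. A signal under the floor was set to it before the ratio was taken. A spread is available only between probe sets of the same gene, whose pooled SD was 0.27 over the chaperone genes and 0.36 over all genes. In bulk RNA fewer cells of a type and less RNA per cell cannot be told apart.

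Both arrays had a 2% trimmed mean signal of 500.1. Each array lacked most of the transcript that its label names. H2AFZ, the H2A.Z-1 gene, had a signal of 614.6 in H2A.Z-1 KO cells and 27642 in H2A.Z-2 KO cells. H2AZ2 had 20911 in H2A.Z-1 KO cells and 42.1, under the floor, in H2A.Z-2 KO cells. All 9 B-cell markers with a probe set were above the floor on at least 1 array. EBF1 gave 780.5 in H2A.Z-1 KO cells and 21.3, under the floor, in H2A.Z-2 KO cells, and PAX5 127.1 and 203.2. In the same order, CD79B gave 10163 and 1160, CD72 6334 and 1320, and BTK 5885 and 2253. PAX5, LYN and IRF4 were higher in H2A.Z-2 KO cells, and the other B-cell markers in H2A.Z-1 KO cells. The T-cell markers CD3E, CD4 and ZAP70 and all 3 myeloid markers were under it on both arrays, while CD3D gave 9211 in H2A.Z-1 KO cells and 7509 in H2A.Z-2 KO cells. CD247 gave 916.0 in H2A.Z-1 KO cells and 301.5 in H2A.Z-2 KO cells, and CD8A 97.3 and 157.4. Summed over the list, B-cell markers gave 50156 in H2A.Z-1 KO cells and 28694 in H2A.Z-2 KO cells, T-cell markers 10372 and 8094, myeloid markers 123.9 and 128.5, erythroid markers (1 of 2 above the floor) 45.6 and 174.4, and fibroblast markers (2 of 4) 436.0 and 331.7. The part of these differences in the results was not tested.

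Chaperones hold newly made or damaged proteins while they fold. HSP70 proteins bind exposed peptide stretches in a cycle driven by ATP, J-domain proteins (the DNAJ genes) bring them clients and start ATP hydrolysis, and exchange factors such as the BAG and HSP110 proteins reset the cycle. HSP90 acts later on kinases, receptors and other clients, and the CCT ring encloses actin, tubulin and other proteins. Mitochondria and the ER have their own HSP70, HSP90 or HSP60 members, and the ER adds lectin chaperones and disulfide isomerases for secreted and membrane proteins. Many cytosolic members are targets of heat shock factors, and many ER members are targets of the unfolded protein response. In B cells the ER set is known for its part in making immunoglobulin.

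Most chaperones were close in both knockouts, and the few larger differences all lay on one side. Of the 71 genes, 0 were higher in H2A.Z-1 KO cells by 2-fold or more, 5 were lower there by that much, and 66 were within 2-fold. The 5 were HSPB9, PDIA5, HSPA2, HSPA13 and DNAJC28. The 5 genes are 7.04% of the chaperones, against 6.65% past 2-fold in either direction among the 7979 named genes above the floor, so the share is near the background. By direction, the background was 2.86% on the H2A.Z-1 KO side and 3.80% on the H2A.Z-2 KO side. At 1.5-fold, 0 of 71 were higher in H2A.Z-1 KO cells and 10 (14.1%) in H2A.Z-2 KO cells, against backgrounds of 7.57% and 11.7%. Ratios below 0 were found for 49 of 71 chaperones (69.0%) and for 57.4% of all named genes. The median log2 ratio was -0.13 for the chaperones and -0.06 for all named genes.

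**Figure D1:**
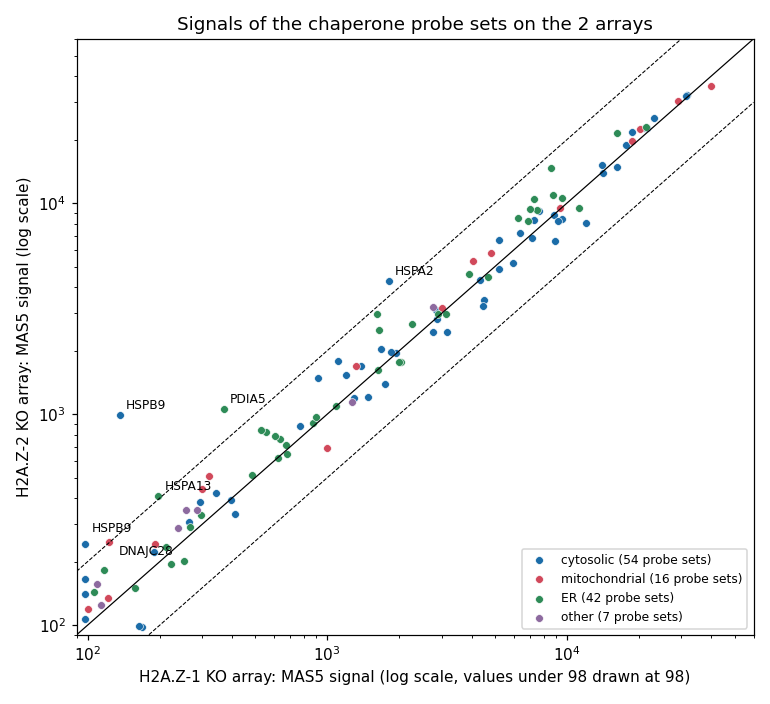
MAS5 signals of the 119 chaperone probe sets above the floor, H2A.Z-1 KO array on the horizontal and H2A.Z-2 KO array on the vertical axis, both on log scales and coloured by compartment; the solid line marks equal signals and the dashed lines 2-fold. Most points lie between the dashed lines, and the labelled genes HSPB9, HSPA2, PDIA5, HSPA13 and DNAJC28 lie on or beyond the upper dashed line.

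Cytosolic chaperones as a class sat close to the background, with HSPB9 and HSPA2 apart. Of 37 cytosolic genes, those 2 were past 2-fold and lower in H2A.Z-1 KO cells (5.41%, against 3.80% of all named genes) and 35 were within 2-fold. Ratios were below 0 for 22 (59.5%, against 57.4% of all named genes) and above 0 for 15. Their median log2 ratio was -0.10. The ratios ran from -2.08 for HSPB9 to 0.58 for AHSA1.

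HSPA8 and the cytosolic HSP90 genes differed little. HSPA8, the constitutive HSP70 of the cytosol, had a signal of 31516 in H2A.Z-1 KO cells and 32280 in H2A.Z-2 KO cells, a log2 ratio of -0.03. HSP90AA1, one of the cytosolic HSP90 genes, had 31809 and 23053 on its probe sets in H2A.Z-1 KO cells and 32620 and 25235 in H2A.Z-2 KO cells, a ratio of -0.08. The other cytosolic HSP90 gene, HSP90AB1, had 9138 in H2A.Z-1 KO cells and 8189 in H2A.Z-2 KO cells, a ratio of 0.16. All 3 ratios are smaller than the pooled SD between probe sets. The sign of HSPA8 changed under 2 of the other processing settings.

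HSPA2 stood apart within the HSP70 family. RefSeq lists HSP70 as a synonym of this chicken gene, on chromosome 5. Its signal was 1809 in H2A.Z-1 KO cells and 4274 in H2A.Z-2 KO cells, a log2 ratio of -1.24, or 2.36-fold lower in H2A.Z-1 KO cells. One probe set reported the gene. The ratio was -1.19 after median centring, -1.26 after quantile normalization and -1.25 after lowess. The other settings could hardly move it, because that probe set lay above every floor and carried no several-transcript suffix. The ratio of HSPA8, which also encodes a cytosolic HSP70, was near 0.

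The HSP110-type members of the cytosol and the ribosome-associated HSPA14 were within 1.5-fold, as were most named genes (19.2% past it). HSPA4, an HSP110-type exchange factor, had 4357 and 1675 on its probe sets in H2A.Z-1 KO cells and 4304 and 2025 in H2A.Z-2 KO cells, a ratio of -0.13. HSPH1, another member of that family, had 1836 in H2A.Z-1 KO cells and 1974 in H2A.Z-2 KO cells, a ratio of -0.10. HSPA4L went the other way, with 3159 and 1482 in H2A.Z-1 KO cells and 2445 and 1204 in H2A.Z-2 KO cells, a ratio of 0.33 that both probe sets shared in sign. HSPA14, which pairs with DNAJC2, had 1746 in H2A.Z-1 KO cells and 1397 in H2A.Z-2 KO cells, a ratio of 0.32. The ratio of HSPA14 turned to -0.25 when the floor was lowered to the 40th percentile and a dimmer probe set entered. HSPA12A was under the floor.

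Of the small heat shock proteins, which hold unfolding proteins without using ATP, HSPB9 and HSPB11 were above the floor. HSPB9, on chromosome 27 and listed in RefSeq with the synonym HSP25, had the lowest ratio of the 71 genes. Its brighter probe set gave 136.6 in H2A.Z-1 KO cells and 988.1 in H2A.Z-2 KO cells, 7.23-fold lower in H2A.Z-1 KO cells. The dimmer one gave 95.4, under the floor, in H2A.Z-1 KO cells and 243.0 in H2A.Z-2 KO cells, at least 2.48-fold lower in H2A.Z-1 KO cells. Over both probe sets the gene was at least 4.23-fold lower in H2A.Z-1 KO cells, a log2 ratio of -2.08. A floor at the 80th percentile (567.9) lay above the H2A.Z-1 KO signals of HSPB9. The ratio of -0.80 at that floor is therefore a bound, and the fold can be larger. HSPB11, known in other vertebrates as an intraflagellar transport protein, had 188.6 in H2A.Z-1 KO cells and 223.3 in H2A.Z-2 KO cells, a ratio of -0.24. HSPB1, HSPB2, HSPB3, HSPB7, HSPB7L and HSPB8 were all under the floor on both arrays, so the heat-inducible HSPB1 could not be set beside HSPB9.

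**Figure D2:**
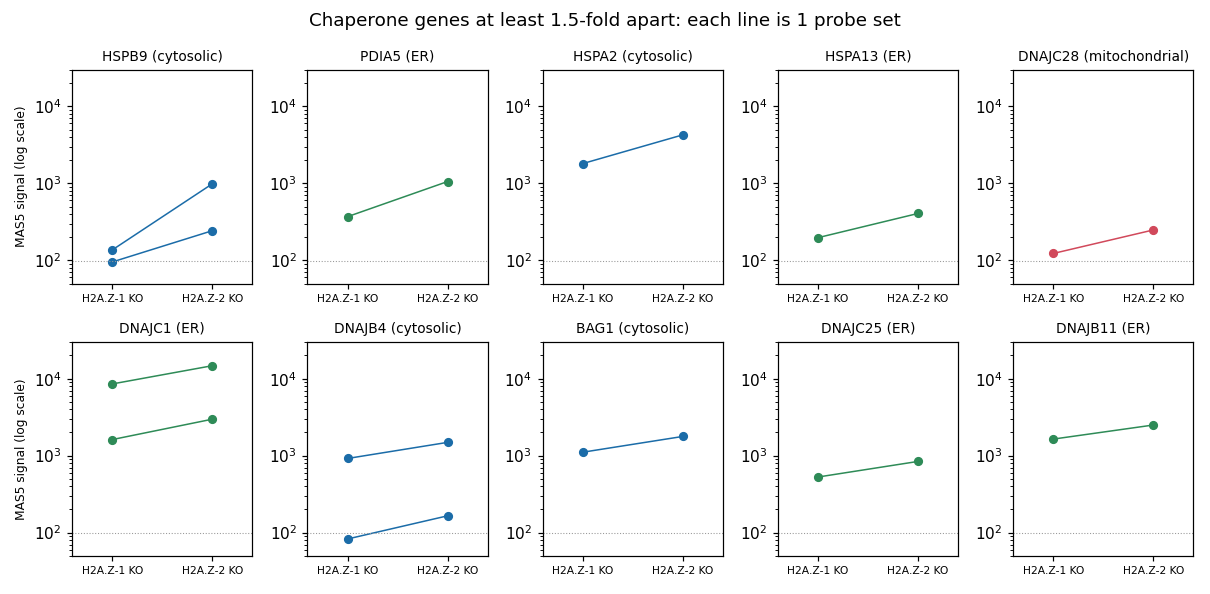
Signals of the 10 chaperone genes at least 1.5-fold apart, H2A.Z-1 KO at the left and H2A.Z-2 KO at the right of each panel, 1 line per probe set above the floor, on a log scale; the dotted line is the floor of 98. Every line climbs to the right, from HSPB9 with a log2 ratio of -2.08 to DNAJB11 with -0.61.

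The 8 genes of the CCT ring, the hetero-oligomeric chaperonin that folds actin and tubulin, had reported ratios within 1.5-fold. For CCT6A that ratio is a bound set by the floor, and the fold can be larger. Most named genes were also within 1.5-fold, with 19.2% past it, and 13.2% of those with a mean signal of at least 1000. TCP1, the alpha subunit, had 21553 in H2A.Z-1 KO cells and 22589 in H2A.Z-2 KO cells, a ratio of -0.07. CCT2 had 13999 in H2A.Z-1 KO cells and 15181 in H2A.Z-2 KO cells, a ratio of -0.12. CCT3 had 9498 in H2A.Z-1 KO cells and 8435 in H2A.Z-2 KO cells, a ratio of 0.17. These 3 subunits thus lay on both sides of 0 by less than the spread between probe sets. CCT4 had 17579 and 7298 in H2A.Z-1 KO cells and 18876 and 8346 in H2A.Z-2 KO cells, a ratio of -0.15. CCT5 had 21195 in H2A.Z-1 KO cells and 22707 in H2A.Z-2 KO cells, a ratio of -0.10. CCT7 had 14127 in H2A.Z-1 KO cells and 13817 in H2A.Z-2 KO cells, a ratio of 0.03. The remaining subunits each had a bright and a dim probe set above the floor. CCT8 had 18665 and 264.0 in H2A.Z-1 KO cells and 21643 and 307.0 in H2A.Z-2 KO cells, a ratio of -0.22. CCT6A had 16111 on its bright probe set in H2A.Z-1 KO cells and 14870 in H2A.Z-2 KO cells, a ratio of 0.12. Its dim probe set gave 168.5 in H2A.Z-1 KO cells and 72.2, under the floor, in H2A.Z-2 KO cells, which with that signal set to the floor put the mean ratio of CCT6A at 0.45, or at least 1.36-fold. With the brightest probe set of each gene, the ring spanned -0.21 (CCT8) to 0.17 (CCT3), with an SD of 0.13 over the 8 genes. With the mean of probe sets used elsewhere, it spanned -0.22 (CCT8) to 0.45 (CCT6A), with an SD of 0.22.

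Among HSP90 and HSP70 regulators, AHSA1 had the highest ratio of the 71 genes. AHSA1 stimulates the ATPase of HSP90. Its signal was 12000 in H2A.Z-1 KO cells and 8037 in H2A.Z-2 KO cells, a log2 ratio of 0.58, or 1.49-fold brighter in H2A.Z-1 KO cells. With the floor at the 40th percentile a dim second probe set brought the ratio to 0.18, and median centring brought it to 0.63.

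The BAG genes, exchange factors of HSP70, went both ways. BAG1, which links HSP70 to the proteasome, had 1108 in H2A.Z-1 KO cells and 1776 in H2A.Z-2 KO cells, a ratio of -0.68. BAG2, an inhibitor of the chaperone-linked ubiquitin ligase encoded by STUB1, had 4506 in H2A.Z-1 KO cells and 3467 in H2A.Z-2 KO cells, a ratio of 0.38. BAG4 and BAG5 both stood at -0.29. Of these genes BAG1 alone was past 1.5-fold (against 19.2% of all named genes), and each rests on 1 probe set. BAG3, a stress-inducible member that works with small heat shock proteins, was under the floor. HSPBAP1, named for its binding to a small heat shock protein, had a ratio of -0.37.

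The cytosolic and nuclear J-domain proteins ranged from -0.72 to 0.34. DNAJB4 was lowest, with 918.7 on its brighter probe set in H2A.Z-1 KO cells and 1487 in H2A.Z-2 KO cells. The dimmer probe set of DNAJB4 gave 82.7, under the floor, in H2A.Z-1 KO cells and 165.4 in H2A.Z-2 KO cells, and over both probe sets the gene was at least 1.65-fold lower in H2A.Z-1 KO cells, a mean ratio of -0.72 with the dimmer signal set to the floor. The dimmer probe set passed the floor only on the H2A.Z-2 KO array. Its sign was therefore fixed by the floor and is no second reading of the direction. DNAJC24, which takes part in making diphthamide on elongation factor EF2, was under the floor in H2A.Z-1 KO cells (87.8) and had 141.2 in H2A.Z-2 KO cells. It was at least 1.44-fold lower in H2A.Z-1 KO cells, a ratio of -0.53 against the floor and -0.68 without one.

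DNAJC9 was highest in this group. It is a histone co-chaperone that binds H3 and H4 and recruits HSP70. Its 3 probe sets gave 8924, 4482 and 1293 in H2A.Z-1 KO cells and 6596, 3252 and 1191 in H2A.Z-2 KO cells. All 3 were higher in H2A.Z-1 KO cells, by 0.44, 0.46 and 0.12 on the log2 scale, a mean of 0.34. The value stayed above 0 under every setting, from 0.12 to 0.44.

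The type I J-proteins, which carry a zinc-binding region, leaned slightly below 0. DNAJA1 had 5203 and 2829 in H2A.Z-1 KO cells and 6687 and 3107 in H2A.Z-2 KO cells, a ratio of -0.25. DNAJA4 had 6382 and 1202 in H2A.Z-1 KO cells and 7211 and 1527 in H2A.Z-2 KO cells, a ratio of -0.26. DNAJA2 had 8838 and 7159 in H2A.Z-1 KO cells and 8791 and 6833 in H2A.Z-2 KO cells, a ratio of 0.04. The differences of all 3 are within the pooled SD between probe sets.

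Of the remaining cytosolic and nuclear J-proteins, none was past 1.5-fold as reported (against 19.2% of all named genes). DNAJB6, which limits protein aggregation, stood at 0.11, the ribosome-associated DNAJC2 at 0.09, DNAJC21, a factor of ribosome assembly, at 0.03 and the splicing-associated DNAJC8 at -0.12. DNAJC12, a co-chaperone of aromatic amino acid hydroxylases, had a ratio of 0.29. DNAJC7, which binds both HSP70 and HSP90, had a mean ratio of 0.27, but its probe sets gave 772.7 and 164.4 in H2A.Z-1 KO cells and 874.3 and 99.5 in H2A.Z-2 KO cells. The brighter of these had a ratio of -0.18 and the dimmer 0.72, so the direction of DNAJC7 is not settled. DNAJB2 was near the floor, with 59.9, under it, in H2A.Z-1 KO cells and 106.6 in H2A.Z-2 KO cells. Its ratio of -0.12 was set by the floor and was -0.83 for a floor at the 40th percentile and -0.82 for none. DNAJB5, DNAJB8, DNAJB13 and DNAJC17 were under the floor on both arrays.

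**Figure D3:**
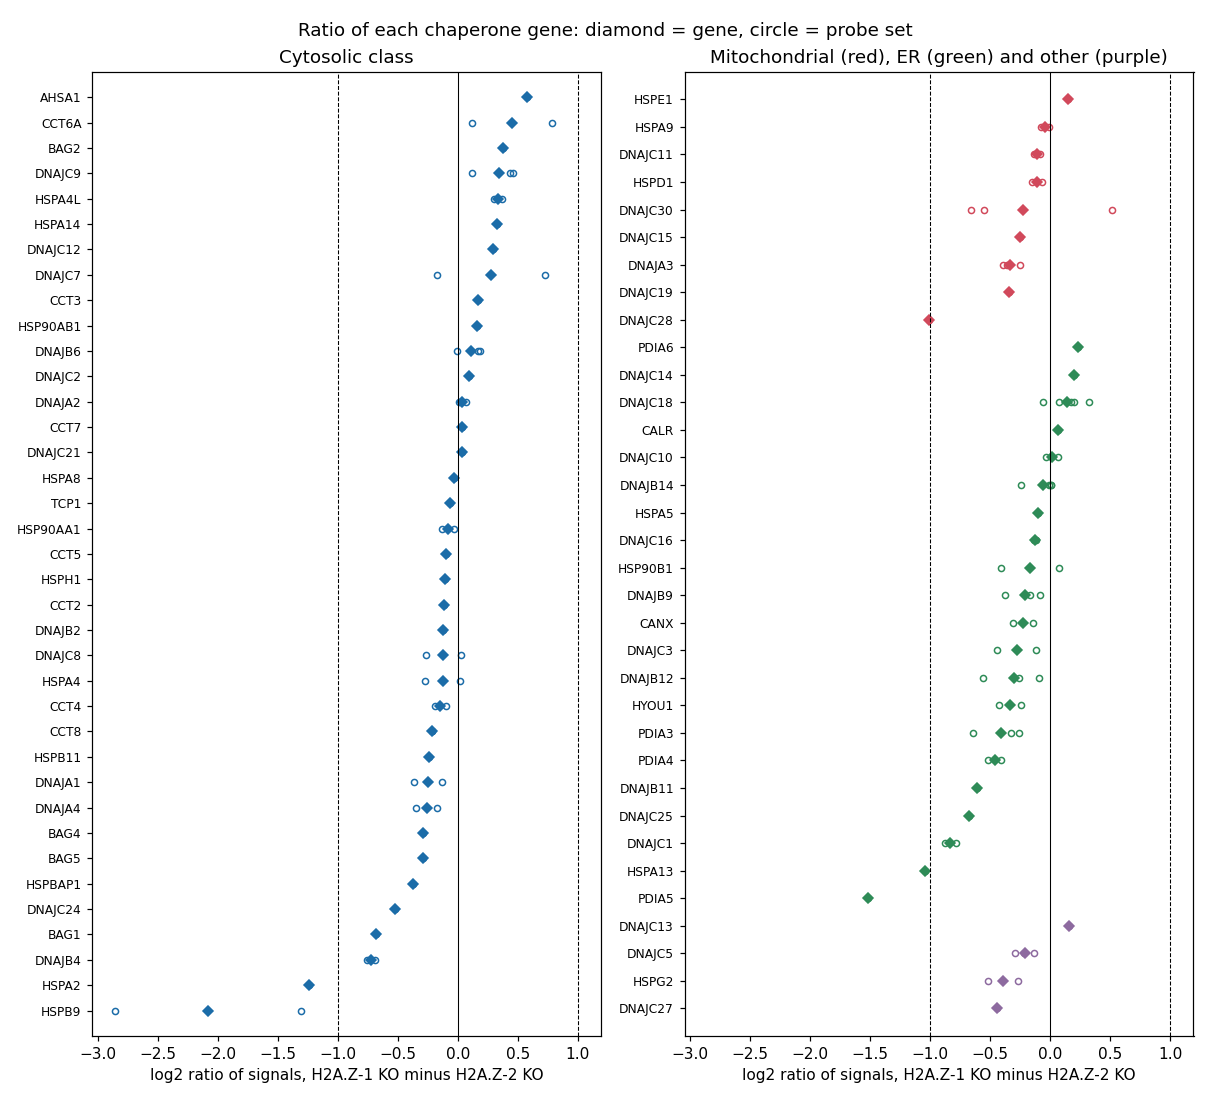
Log2 ratio of each of the 71 chaperone genes, H2A.Z-1 KO over H2A.Z-2 KO, with diamonds for genes and open circles for the probe sets above the floor, cytosolic genes on the left and mitochondrial, ER and other genes on the right; dashed lines mark 2-fold. The low end of each main class reaches past -1 (HSPB9, DNAJC28 and PDIA5 lowest), while no gene reaches 1, the highest being AHSA1 at 0.58.

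Mitochondrial chaperones showed small differences in the main folding machines. Of 9 genes, 1 was past 2-fold and lower in H2A.Z-1 KO cells (11.1%, against 3.80% of all named genes on that side and 6.65% on either). A ratio below 0 was found for 8 (88.9%, against 57.4%). The median was -0.23, or -0.087 when the brightest probe set of each gene was used. HSPD1, the mitochondrial HSP60 that forms a folding chamber, had 29127 and 20159 in H2A.Z-1 KO cells and 30526 and 22435 in H2A.Z-2 KO cells, a ratio of -0.11. HSPE1 encodes the lid of that chamber and is the next gene to HSPD1 on chromosome 7. HSPE1 had 39795 in H2A.Z-1 KO cells and 35876 in H2A.Z-2 KO cells, a ratio of 0.15. The neighbours thus had ratios of opposite sign, each smaller than the spread between probe sets. HSPA9, the mitochondrial HSP70, had 18665 and 9350 in H2A.Z-1 KO cells and 19733 and 9428 in H2A.Z-2 KO cells, a ratio of -0.05.

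Mitochondrial J-proteins made up the rest of the class. DNAJC28, on chromosome 1, had 123.1 in H2A.Z-1 KO cells and 248.7 in H2A.Z-2 KO cells, a log2 ratio of -1.01, or 2.02-fold lower in H2A.Z-1 KO cells. It was just past 2-fold and fell short of it with the arrays scaled in other ways (-0.96 to -0.84). DNAJA3, a type I J-protein of mitochondria, gave 4841, 4052 and 1317 in H2A.Z-1 KO cells and 5781, 5334 and 1692 in H2A.Z-2 KO cells, with all 3 probe sets lower in H2A.Z-1 KO cells and a mean of -0.34, which turned to 0.39 when no floor was set. DNAJC19 and DNAJC15, J-proteins of the inner membrane import motor, stood at -0.34 and -0.26. DNAJC11, which associates with the cristae-shaping complex of the inner membrane, stood at -0.11. DNAJC30 had probe sets of opposite sign, with 993.5, 300.1 and 320.5 in H2A.Z-1 KO cells against 694.6, 439.7 and 506.6 in H2A.Z-2 KO cells. Its mean of -0.23 therefore describes no common direction, and its brightest probe set alone gave 0.52.

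The ER class leaned further towards H2A.Z-2 KO cells than the cytosolic class. As reported, the mitochondrial class had the same median of -0.23 and 88.9% of its 9 genes below 0, though its median moved with the processing. Of 21 ER genes, 16 had a ratio below 0, which is 76.2% against 57.4% of all named genes. Past 2-fold were 2 genes (9.52%), against 6.65% of all named genes in either direction and 3.80% on the H2A.Z-2 KO side. Past 1.5-fold were 5, or 23.8% of the class, against 19.2% in either direction and 11.7% on that side. All 5 had lower signals in H2A.Z-1 KO cells. The ER median of -0.23 kept its sign under every setting, from -0.29 to -0.18, with the mean of the class at -0.32. The medians of the cytosolic class, the mitochondrial class and all named genes also stayed below 0 under every setting. Whether ER and cytosolic members differ beyond chance cannot be tested with 1 array per genotype.

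Disulfide isomerases of the PDIA family form and rearrange disulfide bonds in secretory proteins. PDIA5, on chromosome 7, had the lowest ratio of the ER class, with 369.5 in H2A.Z-1 KO cells and 1057 in H2A.Z-2 KO cells. That is a log2 ratio of -1.52, or 2.86-fold lower in H2A.Z-1 KO cells, on 1 probe set above the floor. A higher floor, at the 80th percentile (567.9), lay above the H2A.Z-1 KO signal of PDIA5, so the ratio of -0.90 found there is a bound. PDIA4 had 7300 and 7019 in H2A.Z-1 KO cells and 10450 and 9326 in H2A.Z-2 KO cells, a ratio of -0.46 shared by both probe sets. PDIA3, which works with calnexin and calreticulin on glycoproteins, had 8727, 6868 and 116.7 in H2A.Z-1 KO cells and 10929, 8207 and 182.5 in H2A.Z-2 KO cells. All 3 probe sets of PDIA3 were lower in H2A.Z-1 KO cells, with a mean of -0.41. PDIA6 ran the other way, with 11189 in H2A.Z-1 KO cells and 9524 in H2A.Z-2 KO cells, a ratio of 0.23. The family thus held ratios of both signs, and PDIA2 was under the floor.

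Of the HSP70, HSP90 and HSP110 members of the ER, HSPA13 was past 2-fold and HSPA5, HSP90B1 and HYOU1 were within 1.5-fold. HSPA5, the ER HSP70 also called GRP78 and a leading target of the unfolded protein response, had 21461 in H2A.Z-1 KO cells and 23046 in H2A.Z-2 KO cells, a ratio of -0.10. HSP90B1, the ER HSP90, had 16122 on its bright probe set in H2A.Z-1 KO cells and 21418 in H2A.Z-2 KO cells, a ratio of -0.41. A dim probe set of HSP90B1 gave 157.5 in H2A.Z-1 KO cells and 150.0 in H2A.Z-2 KO cells, which brought the gene mean to -0.17. HYOU1, an HSP110-type exchange factor for HSPA5, had 6268 and 2251 in H2A.Z-1 KO cells and 8454 and 2668 in H2A.Z-2 KO cells, a ratio of -0.34. HSPA13, an atypical HSP70 of microsomes on chromosome 1, had 197.4 in H2A.Z-1 KO cells and 407.3 in H2A.Z-2 KO cells. Its ratio of -1.05 is 2.06-fold lower in H2A.Z-1 KO cells, on a single probe set whose suffix marks possible matches to other transcripts. Other scalings left it between -0.99 and -0.95, short of 2-fold, and without a floor a dim second probe set turned it to 0.10.

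The lectin chaperones bind sugar-tagged glycoproteins. CALR, the luminal lectin calreticulin, had 4697 in H2A.Z-1 KO cells and 4489 in H2A.Z-2 KO cells, a ratio of 0.07. Its membrane-bound relative CANX, calnexin, had 9504 and 7481 in H2A.Z-1 KO cells and 10516 and 9288 in H2A.Z-2 KO cells, a ratio of -0.23. Neither differed by more than the pooled SD between probe sets.

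Of the ER J-proteins, DNAJC1, DNAJC25 and DNAJB11 were past 1.5-fold. J-proteins make up much of the ER class, which had 23.8% past 1.5-fold. Of all named genes, 19.2% were past it in either direction and 11.7% on the H2A.Z-2 KO side. DNAJC1, a membrane J-protein that binds ribosomes, had 8536 and 1617 in H2A.Z-1 KO cells and 14729 and 2975 in H2A.Z-2 KO cells. Its probe sets had log2 ratios of -0.79 and -0.88, a mean of -0.83, or 1.78-fold lower in H2A.Z-1 KO cells. Both probe sets were past 1.5-fold, and the mean stayed between -0.87 and -0.78 under every setting. DNAJC25 had 527.7 in H2A.Z-1 KO cells and 841.8 in H2A.Z-2 KO cells, a ratio of -0.67. DNAJB11, a luminal partner of HSPA5, had 1641 in H2A.Z-1 KO cells and 2500 in H2A.Z-2 KO cells, a ratio of -0.61. Each of DNAJC25 and DNAJB11 rests on 1 probe set.

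Other J-proteins of the ER lumen and membrane were nearer to 0. DNAJC3, a luminal co-chaperone induced by ER stress, stood at -0.28, DNAJB9, which holds the stress sensor encoded by ERN1 in check, at -0.21, and the disulfide reductase DNAJC10 at 0.02. DNAJB12 and DNAJB14, membrane J-proteins of ER-associated degradation, had ratios of -0.31 and -0.06. The membrane proteins DNAJC16, DNAJC18 and DNAJC14 stood at -0.13, 0.14 and 0.19. DNAJB9 had 483.7, 607.3 and 296.1 in H2A.Z-1 KO cells and 514.3, 788.4 and 333.2 in H2A.Z-2 KO cells, all 3 lower in H2A.Z-1 KO cells. Luminal members (13 genes, median -0.28) and membrane members (8 genes, median -0.18) both lay below 0, in a division made after the values were seen.

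The 4 members outside these compartments were within 1.5-fold, as were most named genes (19.2% past it). DNAJC27, a small GTPase with a J-domain, had 256.7 in H2A.Z-1 KO cells and 350.2 in H2A.Z-2 KO cells, a ratio of -0.45. HSPG2 falls under the symbol rule but encodes perlecan, a heparan sulfate proteoglycan of basement membranes and not a chaperone. HSPG2 had 238.4 and 109.0 in H2A.Z-1 KO cells and 287.2 and 155.9 in H2A.Z-2 KO cells, a ratio of -0.39. The vesicle co-chaperone DNAJC5 stood at -0.21 and the endosomal DNAJC13, with 1266 in H2A.Z-1 KO cells and 1136 in H2A.Z-2 KO cells, at 0.16. DNAJC5B, DNAJC6 and DNAJC22 were under the floor.

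**Figure D4:**
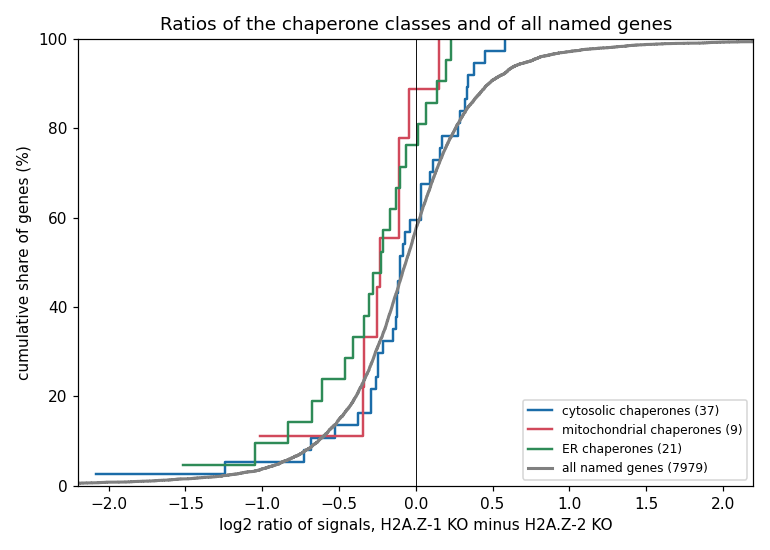
Cumulative share of genes (%) against log2 ratio, H2A.Z-1 KO over H2A.Z-2 KO, for 37 cytosolic, 9 mitochondrial and 21 ER chaperones and for all 7979 named genes above the floor. At a ratio of 0 the mitochondrial curve has reached 88.9%, the ER curve 76.2%, the cytosolic curve 59.5% and the curve of all genes 57.4%.

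Ratios scattered less among bright chaperones (SD 0.34 at a mean signal of at least 1000) than among dim ones (SD 0.52). The same held for all named genes, with an SD of 0.49 at or above 1000 and 0.65 under it. Of the 45 chaperones with a mean signal of at least 1000, 1, HSPA2, was past 2-fold (2.22%), against 3.82% of the 2855 named genes that bright (2.28% higher in H2A.Z-1 KO cells and 1.54% in H2A.Z-2 KO cells). Of the 26 dimmer chaperones, 4 were past 2-fold (15.4%), against 8.24% of the 5124 dimmer genes (3.18% higher in H2A.Z-1 KO cells and 5.05% in H2A.Z-2 KO cells). Past 1.5-fold, 0 bright chaperones were higher in H2A.Z-1 KO cells and 4 in H2A.Z-2 KO cells, against backgrounds of 6.87% and 6.30%, which make 13.2% together. For the dimmer chaperones the counts were 0 and 6, against 7.96% and 14.6%, or 22.6% together. Ratios below 0 were found for 27 of the 45 and for 22 of the 26, which is 60.0% and 84.6%. Among all genes the shares below 0 were 52.3% at or above 1000 and 60.3% under it. The median log2 ratio was -0.08 for the 45 and -0.29 for the 26, against -0.01 and -0.11 for all named genes of the same brightness. The part of brightness in these differences was not tested.

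Probe sets of the same gene mostly shared a sign. Of the 35 chaperone genes that had 2 or more probe sets above the floor, 22 had all of them below 0, 4 had all above 0 and 9 had both signs. The 22 include HSPB9 and DNAJB4, and the 4 include CCT6A. In each of these the dimmer probe set passed the floor on 1 array only, so its sign was fixed by the floor. The same count over all named genes was not made. The other 36 genes had 1 probe set above the floor. Besides the genes for which it is given above, the sign also changed under at least 1 other setting for HSPA4, HSPH1, HSPA9, CCT8, DNAJA2, DNAJB6, DNAJB14, DNAJC3, DNAJC10 and DNAJC21. Of the genes past 2-fold, HSPB9 had a pair of probe sets and HSPA2, PDIA5, HSPA13 and DNAJC28 had 1. At the edge of the floor, DNAJB2 (highest signal 106.6), DNAJC15 (119.6) and DNAJC24 (141.2) lay just inside, and DNAJC17 (92.7), HSPB7 (73.0) and DNAJB5 (63.6) just outside.

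Regulators of chaperone genes were within 1.5-fold where measured, as were most named genes. Of 17 listed heat shock and stress regulators, 11 were above the floor. None was past 1.5-fold (against 19.2% of all named genes), and their median log2 ratio was -0.03. HSF2, a heat shock factor, had a mean signal of 2783 in H2A.Z-1 KO cells and 2619 in H2A.Z-2 KO cells, a ratio of 0.09. HSF3, the avian heat shock factor known to respond to severe heat, stood at -0.12. The stress sensor gene ERN1 was lowest at -0.41, followed by XBP1, its mRNA target, at -0.30. ATF4 stood at -0.07 and the sensor kinase gene EIF2AK3 at 0.09, and the highest mean was that of NFYC, a subunit of the CCAAT-binding factor, at 0.19. The probe sets of NFYC ran from -0.22 to 0.61, one of them under the floor on 1 array, so its direction is not settled. HSF1, ATF6, ATF5 and DDIT3 were not analysed here.

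Partners of HSP90 and HSP70 with other names were also close. Of 21 listed, 15 were above the floor and none was past 2-fold (against 6.65% of all named genes). A ratio below 0 was found for 12 of the 15 (against 57.4% of all named genes), with a median of -0.11. CDC37, which brings kinases to HSP90, was highest with a mean signal of 500.5 in H2A.Z-1 KO cells and 324.5 in H2A.Z-2 KO cells, a ratio of 0.63. The next was GAK, a J-domain kinase of clathrin uncoating, at 0.10, with probe sets from -0.03 to 0.30. At the other end were the ubiquitin ligase gene STUB1 at -0.52 and TTC1 at -0.42. Prefoldin subunits and nascent chain factors, of which 13 of 15 were above the floor, had a median of -0.10. None of them was past 1.5-fold (against 19.2% of all named genes). Their highest were PFDN4 (0.42) and PFDN5 (0.19), subunits that hand actin and tubulin to the CCT ring, and their lowest the tubulin cofactor genes TBCE (-0.47) and TBCD (-0.23).

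ER folding factors outside the symbol rule had the lowest median of these lists. Of 29 listed, 20 were above the floor, with 1 past 2-fold in each direction (10.0% together, against 6.65% of all named genes) and a median of -0.38. Ratios below 0 were found for 17 of the 20 (85.0%, against 57.4% of all named genes). TXNDC5, a disulfide isomerase of the ER, had 5810 in H2A.Z-1 KO cells and 17233 in H2A.Z-2 KO cells, 2.97-fold lower in H2A.Z-1 KO cells. P4HB, the founding disulfide isomerase, had mean signals of 7023 in H2A.Z-1 KO cells and 10599 in H2A.Z-2 KO cells, a ratio of -0.59. In the other direction, the oxidase gene ERO1B had a mean signal of 252.6 in H2A.Z-1 KO cells and was under the floor on both of its probe sets in H2A.Z-2 KO cells, at least 2.58-fold brighter in H2A.Z-1 KO cells. Its paralogue ERO1A stood at -0.42, and ERP44 was next highest in the list at 0.12. The pair of oxidases thus had opposite ratios, as PDIA5 and PDIA6 did.

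Mitochondrial folding factors outside the rule, with 12 of 15 above the floor, had a median of -0.11. None of them was past 1.5-fold (against 19.2% of all named genes). The highest were the cyclophilin gene PPIF at 0.40 and the protease gene LONP1 at 0.37 (probe sets from -0.11 to 0.86), and the lowest SPG7 at -0.35 and TRAP1, the mitochondrial HSP90, at -0.31. Over all 5 lists, 2 of 71 genes were past 2-fold (2.82%), against 6.65% of all named genes.

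**Figure D5:**
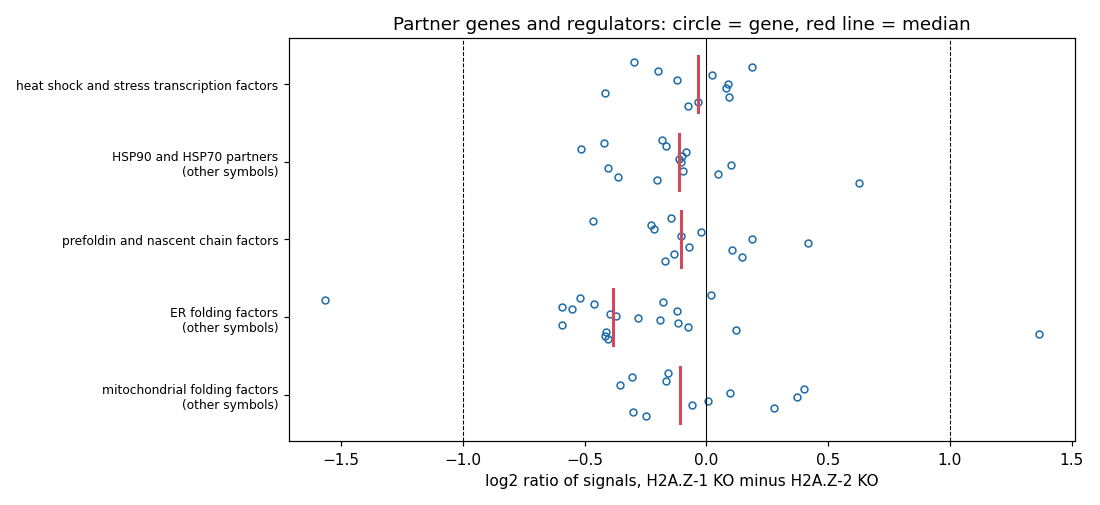
Log2 ratios, H2A.Z-1 KO over H2A.Z-2 KO, of 71 regulators and partners of the chaperones that the symbol rule did not take in, by list, with 1 circle per gene, a red line at each list's median and dashed lines at 2-fold. The ER list has its median at -0.38 and the outlying genes TXNDC5 at -1.57 and ERO1B at 1.37, while the other medians lie between -0.11 and -0.03.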

How the data were processed

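Total RNA of 1 culture per genotype was hybridised to an Affymetrix chicken array. The deposited values are linear intensity values made by the authors with MAS5, per the submitters' processing notes, and the sources used here do not give its settings. MAS5 scaling assumes similar total signal on both arrays. Of 38535 probe sets, 96 controls were left out. Signals under a floor of 98 were set to it, and a fold against such a value is given as "at least". Probe sets at or above the floor on 1 or both arrays were averaged per gene on the log2 scale. Gene names came from the platform annotation (27168 probe sets with 1 symbol, 177 with several, 11094 unnamed), with synonyms and chromosomes from RefSeq (GRCg7b).

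Every chaperone gene above the floor was named. The members, classes and lists came from general knowledge and were chosen with earlier results of these data known. Lowess used a fraction of 0.3 and 3 iterations (statsmodels 0.14.6, Python 3.11.15). The ratio step was tested on simulated data, with changes placed only in probe sets with a mean signal well above the floor. Averaging per gene and the other settings were not part of that test. Protein and promoter sequences were not analysed here.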

Additional observations from a re-analysis of the deposited data

How the results depend on the processing

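No paired analysis was possible because each genotype has 1 array. With no replicates, no array could be left out. The number of chaperones past 2-fold and lower in H2A.Z-1 KO cells was 5 as reported and 3 after median centring, quantile normalization or removal of the brightness trend by lowess, with HSPB9, PDIA5 and HSPA2 kept. Among all named genes, 303 of 7979 were that far apart on this side as reported. Their number was 268 of 8011 after median centring, 269 of 7954 after quantile normalization and 248 of 7979 after lowess. With the floor at the 80th percentile, 1 of 57 chaperones (HSPA2) was left, against 92 of 5067 named genes. With no floor there were 8 of 87 chaperones, against 1970 of 13009 named genes. At that higher floor, HSPB9 and PDIA5 had their H2A.Z-1 KO signals set to the floor, and HSPA13 and DNAJC28 were under it on both arrays. A threshold of 1.5-fold gave 10 (14.1%, against 11.7% of all named genes) and one of 3-fold gave 1 of 71 (HSPB9). The share of all named genes past 3-fold was not taken, so that count has no background beside it. The number of chaperones higher in H2A.Z-1 KO cells was 0 under every setting except no floor. That setting gave 4 of 87 (BAG3, DNAJB13, HSPB7 and HSPH1), against 905 of 13009 named genes. The mitochondrial median of -0.23 was -0.073 after quantile normalization, -0.13 after lowess, -0.13 for a floor at the 40th percentile, -0.066 for one at the 80th, -0.11 for none and -0.087 by brightest probe set. For the 4 genes outside the main compartments the median of -0.30 was -0.19 after quantile normalization, -0.19 after lowess, -0.031 for a floor at the 80th percentile and 0.16 for none. Medians over all chaperones, cytosolic genes and ER genes moved by at most 0.1 under each setting. HSPA13 turned to 0.10 with no floor. In all, 55 of 71 genes kept their sign under every setting that measured them. The cause of these shifts was not tested. The median ratio of all named genes lay between -0.16 (no floor) and -0.01 (80th percentile).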

Other observations

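One further probe set, assigned to both DNAJC19 and SEC24A in the annotation, was left out of the gene values. Its signal was 2838 in H2A.Z-1 KO cells and 3245 in H2A.Z-2 KO cells, a log2 ratio of -0.19. DNAJC19 has 191.5 in H2A.Z-1 KO cells and 242.8 in H2A.Z-2 KO cells on its own probe set.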
